A study of Mus musculus with 6 samples.

Results

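Mouse embryonic stem cells carrying the hairpin shJmjd1c#3 (sh3) were compared with cells carrying a non-targeting hairpin (shNT), to describe which transcripts differed when Jmjd1c was targeted. The comparison uses 4 of the 6 arrays of the study, chosen by the hairpin named in the labels, with 2 arrays in each group. The other two arrays carry a further hairpin against the same gene, shJmjd1c#4 (sh4). All groups were cells of the J1 line and all carried a pLKO.1 lentiviral vector. Infected cells were selected with puromycin at 1.5 ug/ml for 2 days and replated for 4 days before RNA was collected. The culture medium held 15% serum and leukaemia inhibitory factor (LIF) at 1000 U/ml on gelatin, also in the controls. No clone was named, and the design text describes independent duplicates. The p-values below use a spread pooled over the duplicates of all 3 groups, sh4 included, and drawn towards that of other genes of similar signal. A second fit, with the replicate number as a block, also removes what arrays of the same number share.

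Jmjd1c encodes a Jumonji-domain protein related to Kdm3a and Kdm3b, which remove methyl groups from lysine 9 of histone H3, a mark of silent chromatin. In serum and LIF, stem cells move between a naive state, held by factors such as Esrrb, Klf4 and Tfcp2l1, and a formative state that resembles the epiblast after implantation and expresses Fgf5, Otx2 and Dnmt3b. FGF signalling through the kinase ERK favours the move out of the naive state. Changes in actin, cell junctions and extracellular matrix are commonly followed beside these genes, because cells that leave the naive state flatten and change how they adhere.

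Values are MAS5 signals from Affymetrix Mouse Genome 430 2.0 arrays, on which a gene is read by 1 or more probe sets. Each array had a trimmed mean of 499.8, and the median signal lay between 69.3 and 76.2 on the 4 arrays. The sh3 arrays correlated at r = 0.986 with each other and the shNT arrays at r = 0.978, against 0.973 to 0.982 between the groups. The ratio of 3' to 5' signal for Actb was lower on the sh3 arrays (2.26 and 2.40) than on the shNT arrays (2.70 and 2.77), and the part of this in the results was not tested. All 8 stem cell markers, Pou5f1, Nanog and Sox2 among them, were above the filter on dim values in both groups. Of the 5 neural markers on the array, 4 were also at or above the filter in both groups, and Neurog2 was below it on all 4 arrays. By group mean, 5 of 6 primitive endoderm markers reached the filter in each group. Trophectoderm markers did so for 3 of 6 in shNT and 5 of 6 in sh3, and mesoderm markers for 3 of 4 in shNT and none in sh3. Precision is limited by the number of arrays, since 2 against 2 cannot go below 0.333 in an exact two-sided permutation test.

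The targeted gene was read by 3 probe sets, and they did not move together. The brightest, 1426900_at, gave 6060 and 5516 on the shNT arrays and 4541 and 4984 on the sh3 arrays, so that both sh3 values lay below both controls. Its sh3 level was 82.3% of control, and the log2 difference of -0.28 (SE 0.15) did not pass in the limma fit over all probe sets (adjusted p = 0.778). With the sh4 hairpin the same probe set differed by -0.64 (limma adjusted p = 0.281). The dim probe set 1439998_at read 198 and 273 in shNT and 511 and 286 in sh3, a log2 difference of 0.68 (SE 0.28, limma adjusted p = 0.691). The third, 1448049_at, read 368 and 373 in shNT and 727 and 660 in sh3, with no overlap between the groups. Its log2 difference of 0.87 (SE 0.18) missed the threshold in the 3-group limma fit (adjusted p = 0.335) and passed it, as a rise, when the replicate number was a block (adjusted p = 0.0400). With the sh4 hairpin 1439998_at and 1448049_at were higher too, by 0.78 and 0.93 (limma adjusted p = 0.474 and 0.184). Where these probe sets and the hairpin target lie on the transcript was not analysed here, so a direction drawn from the label is that of the library labelled sh3.

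**Figure D1:**
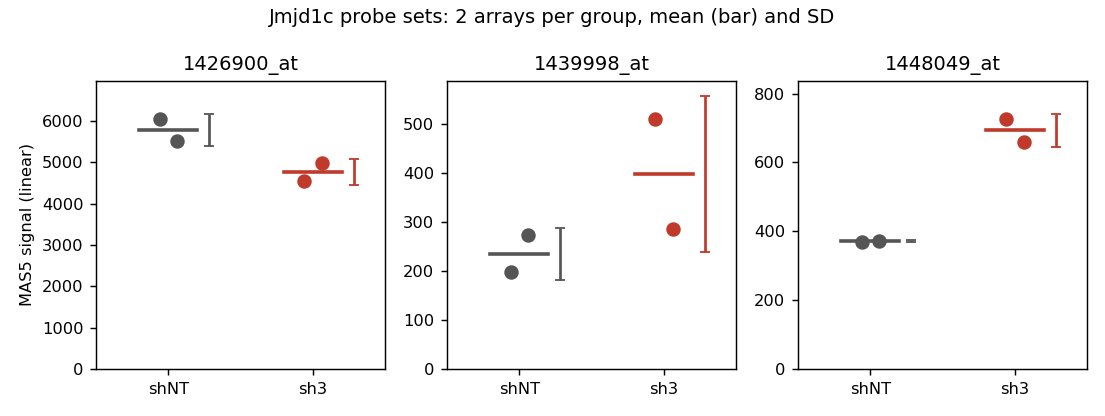
MAS5 signal (linear) of the 3 Jmjd1c probe sets on the 2 shNT and 2 sh3 arrays; points are arrays, the bar is the mean and the bracket the SD. Probe set 1426900_at is lower on both sh3 arrays (4541 and 4984 against 6060 and 5516), while 1448049_at is higher on both (727 and 660 against 368 and 373).

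Across the 12684 genes tested, few differences stood out from the spread between arrays, and most of those that did were rises. In the 3-group limma fit with Benjamini-Hochberg adjustment at 0.05, 9 genes were called (0.071%), 8 higher (0.0631%) and 1 lower (0.00788%). At an unadjusted p under 0.05, 1235 genes passed (9.74%). Arrays with the same replicate number deviated together, and with that number as a block (the replicate-block fit) 435 genes were called (3.43%), 258 higher (2.03%) and 177 lower (1.4%), all 9 of the first calls among them. Without any test, 196 genes (1.55%) differed at least 2-fold with no overlap between the groups, 141 higher (1.11%) and 55 lower (0.434%). Both sh3 arrays lay above both shNT arrays for 21.1% of genes and below both for 19.2%, and these shares are the background for the gene groups described here. The 9 calls need all 6 arrays in the 3-group fit: leaving out any single array left between 0 and 1 genes called, none of the 9 among them. In the replicate-block fit all 9 stayed called whichever array was left out, while the total ranged from 146 genes without sh3 replicate 2 and 294 without sh3 replicate 1 to 1224 without shNT replicate 1.

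**Figure D2:**
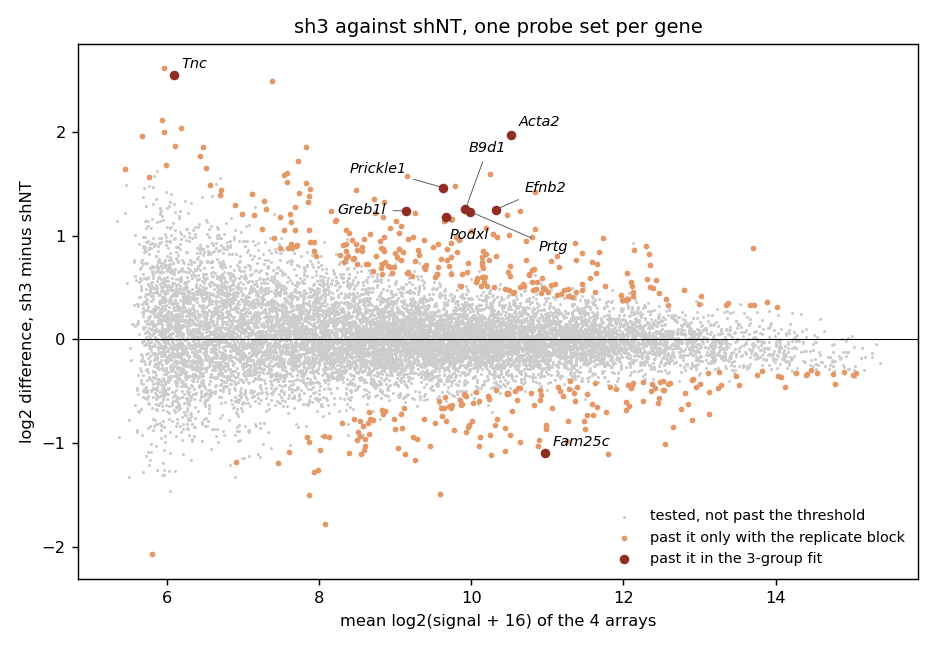
Log2 difference (sh3 minus shNT) against the mean log2(signal + 16) of the 4 arrays, 1 point per gene for 12684 genes; the 9 genes called in the 3-group limma fit are dark red and named, and genes called only with the replicate block are orange. The named rises lie between 1.17 and 2.55, and Fam25c is the single named fall at -1.10.

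Of the 8 rises, Acta2, the smooth muscle alpha actin, gave signals of 584 and 911 in shNT and 2422 and 3471 in sh3. It rose 3.91-fold on the log2(signal + 16) scale, a log2 difference of 1.97 (SE 0.25, limma adjusted p = 0.0454). The groups did not overlap, and the sh4 difference beside it was 2.08. Its probe set belongs to a class (IDs ending in _s_at) whose probes can match more than 1 transcript, and the other probe sets for Acta2 were below the filter.

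Tnc, the matrix glycoprotein tenascin C, was near the floor of the array in the controls, at 19.6 and 6.36, and read 141 and 158 in sh3. It rose by 2.55 in log2 (SE 0.32, limma adjusted p = 0.0454). Because the control lies below the filter signal of 40.1, the size depends on the pseudocount: the difference was 3.61 with a pseudocount of 1 and 1.47 with 64 (adjusted p = 0.056), and sh4 stood at 3.63. Prickle1, a planar cell polarity protein, rose from 504 and 423 to 1334 and 1266, a log2 difference of 1.46 (SE 0.15, limma adjusted p = 0.0454). Its 2 groups were far apart relative to their own spread, and the sh4 arrays were higher again, at 2269 and 1992. The difference between the hairpins, 0.70 in log2, passed only in the replicate-block fit (adjusted p = 0.0386, against 0.402 in the 3-group fit).

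The 5 other rises had tight replicates and similar sizes. Efnb2 encodes ephrin-B2, a membrane ligand of Eph receptors, and went from 916 and 725 to 2072 and 1859 (log2 1.25, SE 0.16). A further probe set for Efnb2, 1419638_at, differed by 1.30. B9d1, a protein of the ciliary transition zone, went from 598 and 630 to 1390 and 1584 (log2 1.25, SE 0.14). Greb1l, a gene needed for kidney development, went from 356 and 347 to 897 and 808 (log2 1.24, SE 0.16, limma adjusted p = 0.0493). Prtg, the immunoglobulin-family receptor protogenin, went from 655 and 632 to 1614 and 1457 (log2 1.23, SE 0.15), and its other probe sets 1438410_at and 1438333_at differed by 1.33 and 1.29. Podxl, a sialomucin of apical membranes, went from 555 and 494 to 1214 and 1193 (log2 1.17, SE 0.15), while a dimmer probe set, 1417396_at, differed by -0.62 without passing (SE 0.62). In each of these genes no sh3 array overlapped a control, and the limma adjusted p was 0.0454 where none is given. The sh4 differences beside them were 0.94 for Efnb2, 1.09 for B9d1, 1.54 for Greb1l, 1.19 for Prtg and 0.72 for Podxl, from the same shNT arrays. When all probe sets of a gene were averaged, dim ones included, the log2 difference was 0.66 for Acta2, 1.39 for Tnc, 0.52 for Prickle1, 0.68 for Efnb2 and 0.28 for Podxl.

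The only call in the other direction was Fam25c, a small protein of unknown function. It fell from 2715 and 3146 in shNT to 1251 and 1478 in sh3, a log2 difference of -1.10 (SE 0.14, limma adjusted p = 0.0454), beside -0.92 in sh4.

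Genes that passed only in the replicate-block fit with the largest differences are given as values. On the higher side, Cdx2, a trophectoderm and posterior-axis transcription factor, read 18.8 and 2.43 in shNT and 90.6 and 209 in sh3 (log2 2.61). Fgf5, a growth factor of the primed epiblast, read 36.1 and 8.63 against 189 and 89.9 (log2 2.04). Sema3f, a secreted guidance cue, read 79.5 and 35.9 against 372 and 384 (log2 2.48), and the sh4 arrays were unequal, at 280 and 46.7. All 3 genes were separated between the groups, and each control level was low or variable. Antxr2, a receptor for collagen VI (log2 2.12), Spred3, an inhibitor of the Ras and ERK pathway (2.00), Aadat, a mitochondrial aminotransferase (1.96), and Lfng, a glycosyltransferase acting on Notch (1.87), also had mean control signals below 40.1. With a pseudocount of 64 the differences of Cdx2, Antxr2, Fgf5, Spred3, Aadat and Lfng were 1.00 to 1.47, so their sizes are not well fixed. Limma adjusted p-values in the replicate-block fit lay between 0.0056 for Fgf5 and 0.0303 for Aadat.

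On the lower side, Ptprcap, a CD45-associated protein, had the largest difference (log2 -2.07), with 128 and 75.6 in shNT and 12.7 and 10.04 in sh3. The sh4 arrays read 77.7 and 82.3, within the range of the controls, and the sh4 difference was -0.26. Zap70, a kinase of the T-cell receptor pathway that is also transcribed in mouse embryonic stem cells, read 494 and 473 against 124 and 136 (log2 -1.77), although 2 further probe sets of the gene differed by 0.44 and -0.46 without passing, and the mean of its probe sets by -0.60. Nupr1, a stress-responsive chromatin protein, read 976 and 1649 against 429 and 458 (log2 -1.48), and a further Nupr1 probe set, 1419666_x_at, differed by -1.38. Cdyl2, a chromodomain protein that binds methylated H3K9, read 5108 and 5258 against 2562 and 2256 (log2 -1.10). The dimmer Cdyl2 probe sets 1432229_a_at, 1444995_at and 1431139_at differed by -0.67, -0.43 and 0.21 without passing, and the mean of its probe sets by -0.50. The groups did not overlap for any of the 4 genes on the probe set used. The other 10 of this kind were Mep1b, Serpinb6c, B4galnt2, Hnf4a, Prdm1, Phf11d, Kdelr3, Mmrn2, Ces5a and Sox15, with log2 differences from -1.50 to -1.08 and replicate-block adjusted p from 0.0020 to 0.0447. Further probe sets differed by -0.16 for B4galnt2 (1439853_at) and 0.02 for Hnf4a (1450447_at), neither passing. Serpinb6c and Ces5a belong to families of close paralogs, and, like Sema3f, had no tested value once probe sets that can match several transcripts were left out.

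**Figure D3:**
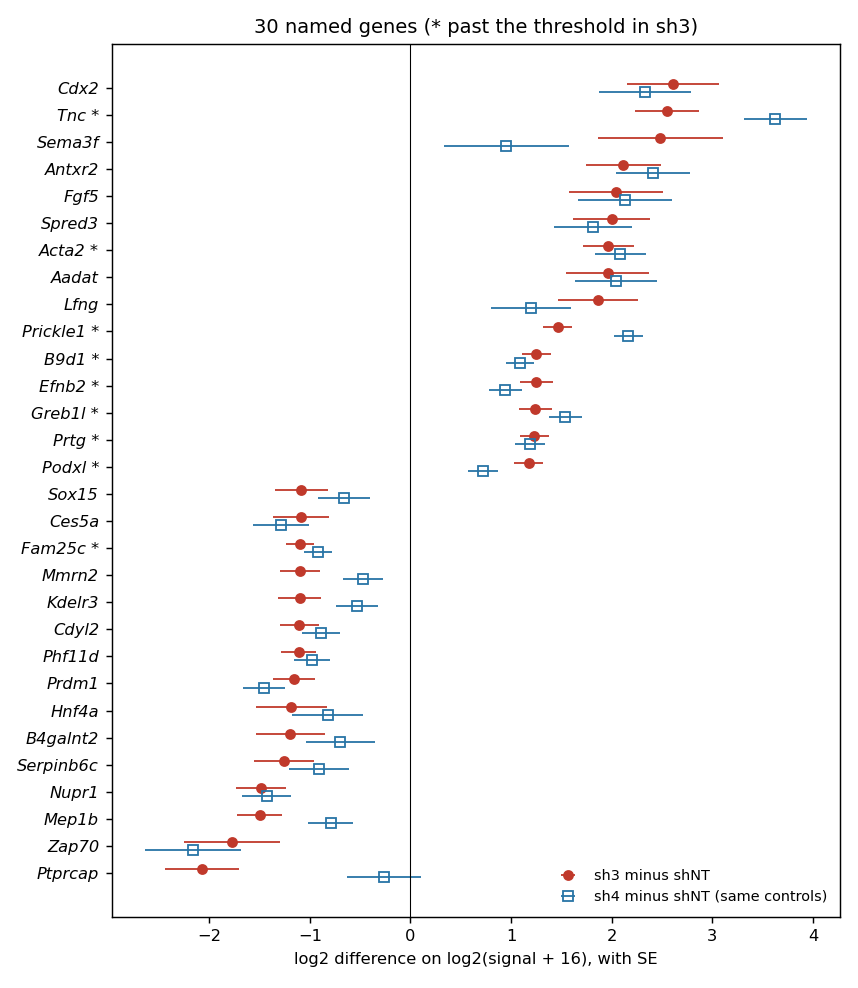
Log2 difference with its SE on the log2(signal + 16) scale for 30 genes, in sh3 (red circles) and sh4 (blue open squares), both against the same 2 shNT arrays; an asterisk marks the 9 genes called in the 3-group fit of sh3. In sh3 the values run from -2.07 for Ptprcap to 2.61 for Cdx2, and the hairpins stand far apart for Ptprcap (sh4 -0.26) and Sema3f (sh4 0.95).

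Core and naive pluripotency genes were lower as a group. Of 32 tested members, 31 had a negative difference, with a median log2 difference of -0.40 against 0.01 for all genes tested. No member was called in the 3-group limma fit (16 at an unadjusted p under 0.05), and 13 fell and none rose in the replicate-block fit. For 18 of the 32 both sh3 arrays lay below both controls, and for none above. The replicate-block count ranged from 6 without sh3 replicate 2 to 21 without shNT replicate 1.

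Dppa3, a maternal and germ cell factor that protects imprints, read 2353 and 2946 in shNT and 1208 and 1477 in sh3, and fell by 0.97 in log2 in the replicate-block fit (limma adjusted p = 0.0010). Esrrb, a nuclear receptor of the naive network, read 2958 and 4691 against 1855 and 2515 (log2 -0.78, replicate-block adjusted p = 0.0021). The Esrrb probe sets 1441921_x_at and 1422986_at differed by 0.17 and -0.08 without passing, and the mean of the gene's probe sets by -0.23 (limma adjusted p = 0.75). Tfcp2l1, a transcription factor of the same network, read 1839 and 3896 against 1144 and 1970 (log2 -0.83, replicate-block adjusted p = 0.0026). In Tfcp2l1 the higher sh3 array stood above the lower control, and each sh3 array lay below the control of its own number. The other 10 that fell were Tcl1, Manba, Klf2, Nr0b1, Jam2, Dppa5a, Nr5a2, Tet2, Fbxo15 and Sox2, from -1.07 for Tcl1 to -0.30 for Sox2. Nanog (7434 and 11375 against 6515 and 8018, log2 -0.35) and Klf4 (7383 and 8209 against 5930 and 5876, log2 -0.40) missed the threshold in the replicate-block fit, with adjusted p of 0.0652 and 0.0654. Zfp42 differed by -0.20. Pou5f1 read 9069 and 11587 against 9964 and 9281, a difference of -0.09 that turned to 0.08 without shNT replicate 2. The sh4 median over the same 32 genes was -0.29.

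Formative epiblast genes were higher. Of 25 tested members, 11 rose and none fell in the replicate-block fit, none passed in the 3-group fit (9 at an unadjusted p under 0.05), and the median log2 difference was 0.60 (0.60 also in sh4). Both sh3 arrays lay above both controls for 11 members and below for 1. Pou3f1, the POU factor Oct6, read 1548 and 784 in shNT and 3622 and 2432 in sh3 (log2 1.42, SE 0.37, replicate-block adjusted p = 0.00044). Dnmt3b, a de novo DNA methyltransferase, read 14907 and 6387 against 22139 and 14588 (log2 0.88, replicate-block adjusted p = 0.0024). The groups did not overlap in Pou3f1 and overlapped in Dnmt3b, where the controls differed more than 2-fold between themselves. Dusp6, a phosphatase that acts on ERK, rose by 0.72, and Pim2, a survival kinase, by 1.24, both in the replicate-block fit. Cdh2, Sall2, Sox11, Sox4, Krt18, Cldn6 and Fgf5 made up the other 7. Fgf5 had a control mean below the filter and was tested because of its level in the hairpin groups. Otx2, a transcription factor of the formative state, did not pass: it read 3112 and 1112 against 3339 and 1837, and its difference of 0.41 (SE 0.45) became -0.33 without shNT replicate 2 and -0.02 without sh3 replicate 1. The group's median shifted with the arrays used, to 0.16 without shNT replicate 2, 0.31 without sh3 replicate 1 and 0.86 without shNT replicate 1, and the replicate-block count ran from 6 without sh3 replicate 2 to 14 without an sh4 array.

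**Figure D4:**
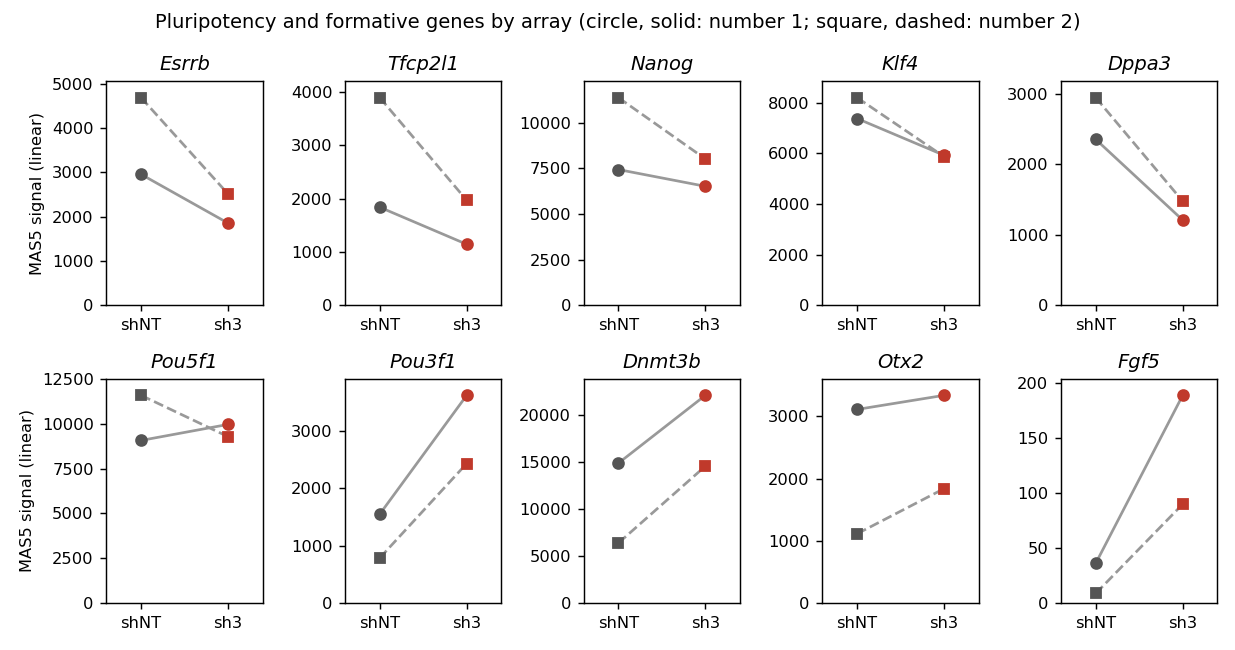
MAS5 signal (linear) of 10 pluripotency and formative genes in shNT and sh3; each line joins the arrays of 1 replicate number (circles and solid line, number 1; squares and dashed line, number 2). Esrrb, Tfcp2l1, Nanog, Klf4 and Dppa3 go down and Pou3f1, Dnmt3b, Otx2 and Fgf5 go up within both numbers, while Pou5f1 goes up from 9069 to 9964 in number 1 and down from 11587 to 9281 in number 2.

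Germ cell and meiosis genes had 21 negative and 6 positive differences. Of 27 tested, 5 fell and none rose in the replicate-block fit, none in the 3-group fit (8 at an unadjusted p under 0.05), the median was -0.27, and both sh3 arrays lay below both controls for 12 and above for 1. Prdm1, the repressor that specifies primordial germ cells, read 814 and 996 against 349 and 448 (log2 -1.16, replicate-block adjusted p = 0.0020). Aurkc, a meiotic kinase, read 808 and 671 against 339 and 360 (log2 -1.04), Stag3, a meiotic cohesin, differed by -0.85, Hormad1 by -0.84 and Tex14 by -0.74. Without sh3 replicate 2 the replicate-block count was 2, and without shNT replicate 2 or an sh4 array it was 7. DNA methylation enzymes split: beside Dnmt3b, Tet2, which oxidises methylcytosine, fell by 0.63 in the replicate-block fit, and the other 11 tested members did not pass. Among 25 genes of H3K9 methylation and its removal only Cdyl2 passed, in the replicate-block fit and on 1 of its probe sets; Kdm3a, the close relative of Jmjd1c, read 5596 and 5757 against 4258 and 4429 (log2 -0.39, replicate-block adjusted p = 0.0502). Of these 25, 12 had both sh3 arrays below both controls and 3 above.

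Genes of the contractile actin cytoskeleton were higher almost throughout. Of 24 tested members 22 had a positive difference, the median was 0.51 (0.43 in sh4), and both sh3 arrays lay above both controls for 17 and below for none. Acta2 passed in the 3-group fit, and 8 members rose in the replicate-block fit. Tagln, the actin-binding protein transgelin, read 510 and 914 in shNT and 1633 and 2672 in sh3 (log2 1.59, SE 0.28, replicate-block adjusted p = 0.0010). Flnc, the muscle filamin, read 83.4 and 127 against 290 and 593 (log2 1.86), and Actc1, the cardiac alpha actin, read 135 and 101 against 320 and 292 (log2 1.28). In all 3 the lowest sh3 array was above the highest control. Cald1, an actin and tropomyosin binding protein, and the tropomyosins Tpm1, Tpm4 and Tpm2 rose by 0.86, 0.93, 0.46 and 0.42. The count in the replicate-block fit ran from 6 without sh3 replicate 2 to 13 without an sh4 array. Srf, which encodes the transcription factor that binds CArG boxes in many actin genes, differed by 0.16 (replicate-block adjusted p = 0.613).

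CArG boxes, read as CC, 6 bases of A or T, and GG on both strands, were looked for in the 250 bases before the start of each gene in RefSeq (GRCm38.p6), because this group of genes is known to hold them. Acta2 and Actc1 are shown as the called actin and the actin whose window held the strict box. Acta2 (chr19:34255374-34255623) and Actc1 (chr2:114052876-114053125) are both on the minus strand, and capitals mark a box or a variant with at most 1 C or G among its 6 middle bases.
Acta2: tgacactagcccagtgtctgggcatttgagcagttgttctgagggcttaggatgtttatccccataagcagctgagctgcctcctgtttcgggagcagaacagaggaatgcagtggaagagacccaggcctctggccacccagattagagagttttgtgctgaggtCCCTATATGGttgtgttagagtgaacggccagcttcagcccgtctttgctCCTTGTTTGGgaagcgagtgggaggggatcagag
Actc1: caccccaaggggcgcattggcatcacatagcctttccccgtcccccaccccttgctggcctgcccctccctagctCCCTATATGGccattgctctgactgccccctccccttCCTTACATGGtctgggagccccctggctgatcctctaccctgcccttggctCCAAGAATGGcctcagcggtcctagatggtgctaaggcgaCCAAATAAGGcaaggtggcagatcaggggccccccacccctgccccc
The variant was added after the sequences had been seen. In Acta2 both matches, CCCTATATGG and CCTTGTTTGG, are variants, beginning 84 and 34 bases before the start. Actc1 has the strict box CCAAATAAGG at 47 bases and 3 variants at 87, 138 and 175 bases, of which CCCTATATGG is the same 10 letters as in Acta2. The strict box was in 1 of the 9 windows found for 7 of the 8 rising members, in 5 of 27 windows for all members of the list (18.5%) and in 482 of 32851 windows of all genes (1.47%). With the variant the counts were 3 of 9, 7 of 27 and 2823 of 32851 (8.59%). A match describes letters in this window and is no evidence of binding.

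Extracellular matrix genes had 19 positive and 14 negative differences. Of 33 tested, 9 rose and 1 fell in the replicate-block fit, with Tnc the only one called in the 3-group fit, and both sh3 arrays lay above both controls for 17 and below for 5. The median was 0.32 (0.44 in sh4, and 0.16 with the 60th percentile filter), the rises in the replicate-block fit numbered 5 without sh3 replicate 2 and 7 to 11 without any other array, and 5 of the 33 had a control mean below the filter, so they were tested because of their level elsewhere. Ccn1, a matricellular protein, read 875 and 1149 against 1846 and 2244 (log2 1.01, SE 0.17, replicate-block adjusted p = 0.0010). Serpinh1, the collagen chaperone Hsp47, read 383 and 562 against 752 and 1114 (log2 0.96), and Sparc, a collagen-binding protein, read 2479 and 2371 against 4052 and 4670 (log2 0.84, and 0.33 for the mean of its probe sets). Each of these was separated between the groups. Col3a1, a fibrillar collagen, read 25.6 and 37.6 against 109 and 190 (log2 1.76). Thbs1 differed by 1.14, Col5a2 by 1.07, Col4a1 by 0.63 (0.38 for the mean of its probe sets) and Ccn2 by 0.47. Nid1, a linker of basement membranes, fell by 0.59 in the replicate-block fit. Among 19 integrins and other matrix receptors, Itga8 (92.7 and 109 against 287 and 470), Antxr2 and Ddr1 rose and none fell in the replicate-block fit, and both sh3 arrays were above both controls for 12 and below for 2. Of the 19, 2 had a control mean below the filter, Antxr2 among them. These were tested because of their level in the hairpin groups. Without sh3 replicate 2 only 1 receptor was called, and 5 rises were without either shNT array.

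Markers of feeder fibroblasts were mostly higher, and Col3a1 stands both in this list and in the matrix list. On the array were 26 of them, of which 12 had a mean at or above the filter in shNT and 19 in sh3. Their summed signal was 4132 and 3971 on the shNT arrays and 4995 and 5019 on the sh3 arrays, and 22 of the 26 had a positive difference. Of 18 tested, 2 rose and none fell in the replicate-block fit, and 6 had a control mean below the filter. Both sh3 arrays lay above both controls for 6 (33.3%, against 21.1% of all genes) and below for 1. Lum, Prrx1, Dpt, Ogn and Cd248 were below the filter on all 4 arrays, and Col1a1 read 5.88 and 73.2 against 61.9 and 86.7. Their part in the matrix values was not tested. In bulk samples a change in the number of cells of a type and a change in RNA per cell cannot be told apart.

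Epithelial junction genes were higher too, and here the hairpins gave different values. Of 35 tested, 8 rose and none fell in the replicate-block fit and none passed in the 3-group fit (12 at an unadjusted p under 0.05). Both sh3 arrays lay above both controls for 20 and below for none, and the median was 0.34, against -0.11 for the same genes in sh4. Cldn7, a tight junction claudin, read 1629 and 1231 in shNT and 2475 and 2102 in sh3, while the sh4 arrays stood at 1617 and 1058. It rose by 0.68 (SE 0.21, replicate-block adjusted p = 0.0109), and its difference between the hairpins, -0.79, passed in the replicate-block fit alone (adjusted p = 0.0207, 0.568 in the 3-group fit). Dsp, which encodes desmoplakin, read 1741 and 1605 against 2240 and 2459 (log2 0.49), beside -0.11 in sh4, and the difference between the hairpins had a replicate-block adjusted p of 0.0508. Cdh1, E-cadherin, read 14441 and 12329 against 17257 and 16977 (log2 0.36), and rose in the replicate-block fit (adjusted p = 0.0282). The simple keratins Krt8, Krt18 and Krt19 rose by 0.75, 0.60 and 0.70 in the same fit; their groups overlapped, as in Krt8, with 1559 and 3553 in shNT and 2615 and 6019 in sh3. Prom1 and Cldn6 were the other 2, and Epcam differed by 0.05. The replicate-block count for this group fell to 0 without sh3 replicate 2 and to 5 without sh3 replicate 1, and was 10 to 13 without any of the other arrays.

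Mesenchymal genes and the repressors of epithelial genes did not move as one. Of 20 tested, 5 rose (Sparc, Vim, Cdh2, Ets1 and S100a6) and 1 fell (Zeb1) in the replicate-block fit, none in the 3-group fit (8 at an unadjusted p under 0.05), and both sh3 arrays were above both controls for 8. Vim, the mesenchymal intermediate filament, read 4897 and 3066 against 7289 and 6488 (log2 0.82, SE 0.20, replicate-block adjusted p = 0.0036). Cdh2, N-cadherin, read 857 and 440 against 1500 and 1015 (log2 0.99). Zeb1, a repressor of E-cadherin, read 441 and 566 against 264 and 246 (log2 -0.93, replicate-block adjusted p = 0.0186), with sh4 arrays of 497 and 435 and an sh4 difference of -0.10. The mean of its probe sets differed by -0.46. The difference of Zeb1 between the hairpins, 0.83, did not pass (replicate-block adjusted p = 0.0824). The median of 0.29 became 0.53 without sh3 replicate 1 and 0.19 without sh3 replicate 2, with 3 rises in the replicate-block fit without the latter.

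Targets and feedback inhibitors of ERK signalling were higher. Of 27 tested, 8 rose and none fell in the replicate-block fit, none in the 3-group fit (7 at an unadjusted p under 0.05), both sh3 arrays lay above both controls for 15 and below for 2, and the median was 0.35 (0.27 in sh4). Dusp6 read 2753 and 2269 against 4292 and 3986 (log2 0.72, SE 0.13, replicate-block adjusted p = 0.0023). Egr1, an immediate early transcription factor, read 4658 and 5039 in shNT and 6688 and 6575 in sh3, while the sh4 arrays stood at 4755 and 4457. Its rise of 0.45 stood beside -0.07 in sh4, and the difference between the hairpins passed in the replicate-block fit alone (adjusted p = 0.0386). Phlda1 (log2 0.95), Jun (0.75), Dusp5 (1.02), Spred1 (0.51), Spred3 (control mean below the filter) and Fosl2 (0.88) were the other 6. The count was 3 without sh3 replicate 1, 4 without sh3 replicate 2 and 13 without shNT replicate 1. Of the FGF ligands and receptors, 14 tested, only Fgf5 passed, in the replicate-block fit. Its control mean lay below the filter, so it was tested because of its level in the hairpin groups.

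Of 20 tested members of the Nodal and TGF-beta list, 9 had a positive and 11 a negative difference, and none passed in the 3-group fit (6 at an unadjusted p under 0.05). Lefty2 and Lefty1, inhibitors of Nodal, fell in the replicate-block fit alone (3-group adjusted p = 0.211 and 0.416). Lefty2 read 3254 and 2166 in shNT and 1610 and 1047 in sh3 (log2 -1.02, SE 0.24, replicate-block adjusted p = 0.0010), and Lefty1 read 6564 and 4399 against 3976 and 2986 (log2 -0.64, replicate-block adjusted p = 0.0035). Lefty genes are both targets and antagonists of Nodal, which read 2888 and 3073 against 2129 and 2437 (log2 -0.39, replicate-block adjusted p = 0.0637). The groups were separated for all 3 genes. Inhbb, an activin subunit, fell by 0.98 in the replicate-block fit (adjusted p = 0.0320) beside 0.10 in sh4, and the difference between the hairpins did not pass (replicate-block adjusted p = 0.0605). The mean of the Inhbb probe sets, a dim one included, differed by -0.43 (limma adjusted p = 0.80). The other 17 tested members of the list did not pass, and its median was -0.05. The replicate-block falls numbered 2 without either sh3 array and 5 without shNT replicate 2.

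Of 14 tested Hedgehog pathway genes, 10 had a positive and 4 a negative difference. Gli1, a transcription factor and target of the pathway, read 472 and 626 against 256 and 248 (log2 -1.06, SE 0.22), and Ptch1, the receptor and a target, read 5389 and 4903 against 4101 and 3350 (log2 -0.47). Both fell in the replicate-block fit (limma adjusted p = 0.0099 and 0.0221), B9d1 rose, and the other 11 tested members did not pass. Without sh3 replicate 2 none of the Hedgehog genes was called lower in the replicate-block fit, and without an sh4 array 4 were. Of 19 planar cell polarity genes, Prickle1 and the receptor Ror1 (77.2 and 59.4 against 214 and 147) rose, the second in the replicate-block fit alone. Among 19 Wnt targets and factors, Cdx2 and the repressor Tcf7l1 (log2 0.70) rose and the receptor Fzd5 (log2 -0.66) fell in that fit. Of the 19, 3 had a control mean below the filter, Cdx2 among them, so they were tested because of their level elsewhere. A further Tcf7l1 probe set, 1436207_at, differed by 0.11 without passing, and the mean of both by 0.40. No Wnt gene was called without sh3 replicate 2, and 6 rises were called without shNT replicate 1.

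**Figure D5:**
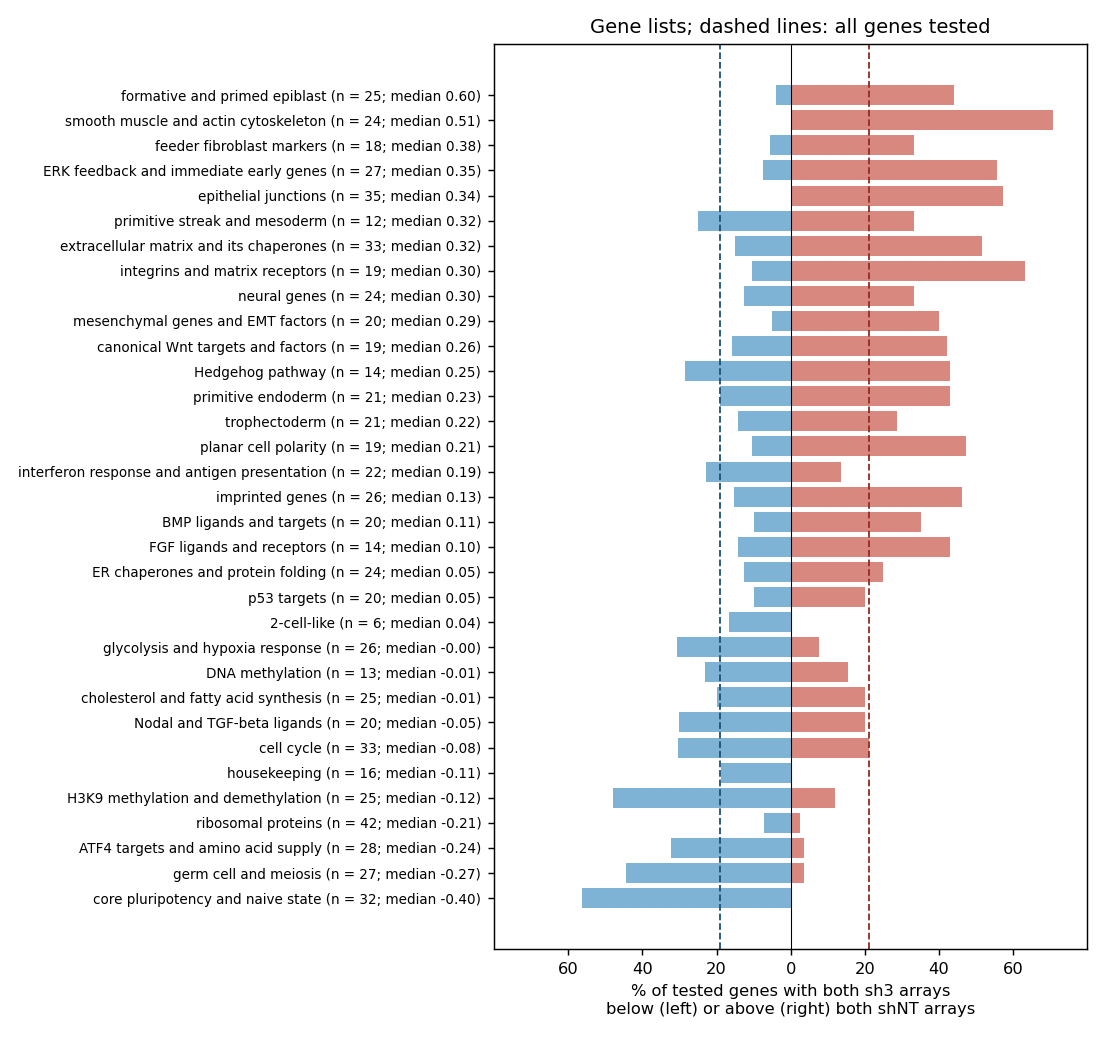
Share (%) of tested genes in each of 33 gene lists with both sh3 arrays below (left, blue) or above (right, red) both shNT arrays; dashed lines mark the same shares over all 12684 genes (19.2% and 21.1%), and n and the median log2 difference stand beside each name. The actin list reaches 70.8% above and the pluripotency list 56.2% below.

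Beside sh4, few genes separated the hairpins by test. No gene was called for sh4 minus sh3 in the 3-group limma fit (774 at an unadjusted p under 0.05, 6.1%), and 53 were in the replicate-block fit (0.418%). Both comparisons with shNT use the same 2 control arrays, so their values are given side by side only. Among the genes that passed for sh3 as well as between the hairpins in the replicate-block fit, Hmga2, a chromatin protein and let-7 target, read 454 and 481 in shNT, 839 and 821 in sh3 and 1510 and 1642 in sh4. Col4a1, a basement membrane collagen, read 698 and 787, 1046 and 1277, and 2672 and 2050 in the same order. For both genes the sh3 arrays lay between the controls and the sh4 arrays. A further Col4a1 probe set, 1426348_at, differed by 0.14 in sh3 without passing, and the mean of the Col4a1 probe sets by 0.38. Zfas1, a host of small nucleolar RNAs, read 9185 and 10868, 4969 and 6842, and 8220 and 11423, so that it was lower in sh3 (log2 -0.78) with sh4 at -0.04. Ipo7, a nuclear import receptor, was likewise lower in sh3, with 8311 and 9119 against 5084 and 5869 (log2 -0.67) and -0.24 in sh4. Vegfc, a lymphatic growth factor, differed by -0.53 in sh3 and 0.25 in sh4, and Ccn1 by 1.01 and 0.38.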

How the data were processed

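RNA from 2 shNT, 2 sh3 and 2 sh4 cultures was hybridised to 1 array each. The authors deposited MAS5 intensity values, a linear signal per probe set scaled to a common trimmed mean, per the submitters' processing notes (no version given) and the values. Of 45101 probe sets 64 were controls, 34945 had 1 gene symbol in the platform annotation, 932 several and 9160 none. Each of 18193 symbols was represented by its probe set with the highest mean over 6 arrays; 12684 genes at or above the 40th percentile (signal 40.1) were tested. Log2(signal + 16) was fitted with limma 3.58.1 (R 4.3.3) as 3 group means over all 6 arrays, eBayes with trend, and p-values adjusted by Benjamini-Hochberg over the genes tested (threshold 0.05). Differences on the log2(signal + 16) scale understate the change of dim genes. The filter took the mean over all 6 arrays, so 330 of the genes tested had a control mean below it. Such genes were tested because of their level in the hairpin groups, which favours rises. Beyond the matrix and feeder lists they included 3 of 19 Wnt, 3 of 20 BMP, 2 of 25 formative, 2 of 27 ERK and 2 of 19 matrix receptor genes. Cdx2, Fgf5, Spred3 and Antxr2 were among them.

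After each group's mean was removed, arrays with the same replicate number correlated at 0.302 (shNT and sh3), 0.223 (shNT and sh4) and 0.300 (sh3 and sh4) over 12684 genes. Pairing by replicate number was accepted on this basis, from the data and not from a label, and the fit with the number as a block is given where it changes a call. The same values chose the block and were tested with it, and most rises and falls named for the lists rest on it. The Gapdh 3' to 5' ratio was higher in number 2 than in number 1 of each group (1.68 and 1.38 in shNT, 1.46 and 1.30 in sh3, 1.49 and 1.33 in sh4). Its part in the shared deviations was not tested.

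Named genes were up to 15 rises and 15 falls, ranked by size among calls and then among replicate-block calls, genes with RIKEN or Gm symbols passed over; up to 4 members of each list with the smallest p; and 24 genes of interest. Genes named beyond these were chosen after their values were seen. The 33 lists and the genes were chosen with earlier results of these data known. No test over a list was run. Alternatives were the block, 4 arrays only, no trend, pseudocounts of 1 and 64, no filter and the 60th percentile, quantile normalization, median centring, the mean of probe sets, probe sets without _x_at and _s_at, and each array left out.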

Additional observations from a re-analysis of the deposited data

Results flagged for a closer look

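Gata6, a transcription factor of primitive endoderm, stood out because the hairpins lay on opposite sides of the controls. It read 113 and 99.3 on the shNT arrays, 82.7 and 77.3 on the sh3 arrays and 214 and 144 on the sh4 arrays. Both sh3 arrays were below both controls (log2 -0.35) and both sh4 arrays above (log2 0.65). The difference of 1.00 between the hairpins did not pass in limma (adjusted p = 0.593, and 0.148 with the replicate block), and the sh3 value turned to 0.08 with the mean of its probe sets.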

How the results depend on the processing

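The direction of the 9 called genes held in every alternative that gave a value. The count of calls, 9, was 435 with the replicate block and 0 with only the 4 sh3 and shNT arrays, without the intensity trend, with a pseudocount of 1, without a filter, with the 60th percentile filter and with the mean of probe sets. At an unadjusted p under 0.05 limma gave 1022 to 1543 genes in those settings with 0 calls. The count of calls was 7 with a pseudocount of 64 and with median centring, 10 with quantile normalization and 8 without _x_at and _s_at probe sets. Leaving out 1 array gave 0 to 1 calls, and, in the replicate-block fit, 1224 without shNT replicate 1, 902 without shNT replicate 2, 294 without sh3 replicate 1, 146 without sh3 replicate 2, 1011 without sh4 replicate 1 and 999 without sh4 replicate 2, an alternative chosen after seeing the data. The 196 genes at least 2-fold apart became 345 with a pseudocount of 1, 62 with a pseudocount of 64, 558 without a filter, 85 with the 60th percentile filter, 122 with the mean of probe sets and 196 to 495 without 1 array. Median centring moved the median of all genes from 0.01 to -0.03, and the higher and lower split of these genes from 141 and 55 to 125 and 68. Probe set 1448049_at of Jmjd1c, at 0.87, passed only with the block. Over the 147 named genes the replicate block added 73 calls, lost none and changed no other call.

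Signs turned for these genes, none of them called: with the mean of probe sets, H2-D1 -0.11, Fdft1 0.26 and Gata6 0.083; without _x_at and _s_at probe sets, H2-D1 -0.0097. Leaving out 1 array, Ddit4l ranged from -0.17 to 0.36 (-0.0083 without sh3 replicate 1), Pou5f1 from -0.27 to 0.084, Otx2 from -0.33 to 1.14 (-0.02 without sh3 replicate 1), Epcam from -0.013 to 0.11 and Usp17la from -0.050 to 0.54. The causes were not tested. Signals near the floor limit the sizes of Tnc, Cdx2 and Fgf5.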

Other observations

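Imprinted genes included a set that was higher in sh3. Of 26 tested, 7 rose and none fell in the replicate-block fit, and none passed in the 3-group limma fit (11 at an unadjusted p under 0.05). Both sh3 arrays lay above both controls for 12 and below for 4. Plagl1, a zinc-finger gene expressed from the paternal copy, read 782 and 1084 in shNT and 1870 and 2444 in sh3 (log2 1.20, SE 0.19, replicate-block adjusted p = 0.00047), and the mean of its probe sets differed by 0.74. Peg3 (log2 0.53, and 0.18 for the mean of its probe sets), Rian (0.55), Mirg (0.77), Ndn (0.48), Magel2 (0.91) and Sgce (0.66) were the others. The median was 0.13, ranging from 0.08 with a pseudocount of 1 to 0.42 with the 60th percentile filter, and the replicate-block count was 1 without sh3 replicate 2, 3 without sh3 replicate 1 and 9 without an sh4 array.

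Ribosomal protein genes had small negative differences, with 38 of 42 below 0 and a median of -0.21 (-0.02 in sh4). Of all 12684 genes tested, 6215 were below 0. Both sh3 arrays lay below both controls for only 3 of the 42 (7.14%, against 19.2% of all genes) and above for 1. None of the 42 had an unadjusted p under 0.05 in the 3-group limma fit. Rpsa, Rps2 and Rps26 fell by 0.32, 0.33 and 0.32 in the replicate-block fit, where 31 members were called lower without shNT replicate 1, 4 without shNT replicate 2, 1 without sh3 replicate 1, 0 without sh3 replicate 2 and 12 without an sh4 array. The median was -0.38 without shNT replicate 1, -0.04 without shNT replicate 2, -0.13 without sh3 replicate 1 and -0.03 with quantile normalization. The control probe set for 18S ribosomal RNA read 8140 and 6875 in shNT and 6177 and 5333 in sh3, and its part in this was not tested.

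Lineage genes passed in the replicate-block fit only: 6 of 21 primitive endoderm, 6 of 24 neural and 3 of 21 trophectoderm genes, where 3.43% of all genes tested did. Without sh3 replicate 2, the rises in that fit numbered 2, 3 and 0. Of the primitive endoderm genes, Lrp2 (466 and 324 against 991 and 860, log2 1.21), Sparc, Krt8 and Col4a1 rose and Apoe (log2 -0.86) and Hnf4a fell. Of the neural genes, Pou3f1, Nes (291 and 211 against 665 and 655, log2 1.36), Meis2, Sox11 and Sox4 rose and Stmn2 fell. Of the trophectoderm genes, Cdx2, Krt8 and Krt18 rose. Cdx2 had a control mean below the filter, so it was tested because of its level in the hairpin groups. The lists share genes: Krt8 is counted for endoderm and trophectoderm alike. Sparc, Col4a1, Pou3f1, Sox11, Sox4, Cdx2, Krt8 and Krt18 are also counted in other lists above. Summed trophectoderm marker signals were 478 and 375 in shNT and 584 and 784 in sh3, and mesoderm ones 172 and 200 against 158 and 116. Cdx2, 1 of the 6 trophectoderm markers summed, gave 18.8 and 2.43 of the shNT sums and 90.6 and 209 of the sh3 sums. No mesoderm marker had a mean at or above the filter in sh3. The sums for primitive endoderm markers, 588 and 419 against 567 and 507, overlapped between the groups. So did those for neural markers, at 1662 and 1362 against 1651 and 1318. Only Lefty2 of 12 primitive streak and mesoderm genes passed, as a fall, and only Id3 (log2 0.78) of 20 BMP genes, as a rise.

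Genes of the stress and metabolic lists passed, where they did, in the replicate-block fit only. Nupr1, Slc3a2 and Sars of 28 ATF4 targets fell in the replicate-block fit, with a median of -0.24 that became -0.12 without shNT replicate 2. Ifitm3 (7835 and 9371 against 4751 and 4815, log2 -0.84) and Ifitm1 (log2 -0.44) fell among 22 interferon genes. Most of these 22 went the other way, with 15 positive and 7 negative differences. Their median was 0.19, and ranged from -0.06 without shNT replicate 2 to 0.42 without shNT replicate 1. Idi1 rose by 0.81 among 25 genes of sterol and fatty acid synthesis, and Pfkp fell by 0.57 among 26 of glycolysis and hypoxia, in the replicate-block fit. The 25 had 10 positive and 15 negative differences (median -0.015), and the 26 had 13 of each (median -0.0043). Without shNT replicate 2 these medians were -0.12 and -0.27, and without shNT replicate 1 they were 0.16 and 0.20. None of 20 p53 targets, 33 cell cycle genes, 24 endoplasmic reticulum chaperone genes and 6 genes of the 2-cell-like state passed in either limma fit (3, 5, 3 and 0 at an unadjusted p under 0.05 in the 3-group fit). Of 16 housekeeping genes Eef1a1 (log2 -0.31) passed with the replicate block. Of the 10092 probe sets without a single gene symbol, none passed in the 3-group limma fit (564 at an unadjusted p under 0.05), and 11 were higher and 5 lower with the replicate block.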
